A study of Mus musculus with 12 samples.

Results

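The genes of cholesterol and fatty acid synthesis controlled by the sterol regulatory element binding proteins (SREBPs) were compared between 2 lines of cultured mouse muscle cells. The list held 27 genes, chosen by gene symbol: 14 enzymes of sterol synthesis, 4 regulators and sterol carriers, 4 enzymes of fatty acid synthesis, and 5 enzymes that elongate or desaturate fatty acids. Each of the 27 was found among the 78298 genes of the count table, and each passed the filter on low counts that left 13318 genes tested. In the RGECO line 5 of the 27 genes were higher and 0 were lower. Of these 5, 4 were fatty acid desaturases (Scd1, Scd2, Fads1 and Fads2) and the other was the sterol carrier Stard4. Scd2 passed narrowly and was lost when some single libraries were left out. Neither Scd1 nor Scd2 passed on the TPM scale. Of the 14 sterol synthesis enzymes, 0 passed the test in either direction, which is near the share of all genes called in so short a list, and DESeq2, the TPM scale and the covariate fits given below called 1 to 4 of them higher.

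The cells were C2C12, an established line of mouse myoblasts that fuse into myotubes when they differentiate. The labels gave 6 wild-type libraries (WT) and 6 of a C2C12 line with a genetically encoded calcium indicator (RGECO). All were cultured on a hydrogel of methacrylated gelatin and kept for 14 days in differentiation medium with 10% inactivated horse serum, 1 mg per ml aminocaproic acid and 50 ng per ml IGF-1. The labels give neither the promoter of the indicator nor whether RGECO is 1 clone, and they leave unsaid whether each replicate was its own culture. The p-values therefore describe the spread between these libraries, part or all of which may be technical.

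WT libraries held 9370322 to 11744314 counts. The library of RGECO replicate 4 was near empty, with a count in 252 genes and 0 counts in the 27, and was left out. The other 5 RGECO libraries held 5881622 to 11926220 counts. Mitochondrial genes took 0.204% to 1.68% of counts in WT and 0.298% to 1.33% in RGECO, and the nuclear RNA Malat1 took 0.156% to 0.898% and 0.180% to 0.645%. The 8 skeletal muscle markers were all measured, with a summed level of 12900 to 15400 TPM (transcripts per 1000000) in WT and 15480 to 21100 TPM in RGECO. In bulk RNA, fewer cells of a type and less RNA per cell cannot be told apart.

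SREBPs are transcription factors made as precursors in the membrane of the endoplasmic reticulum. When sterols are low, the escort protein SCAP carries them to the Golgi, where proteases release the active part. INSIG proteins hold SCAP back when sterols are plentiful. SREBP-2, from Srebf2, acts mainly on cholesterol synthesis, and SREBP-1, from Srebf1, mainly on fatty acid synthesis. Growing muscle cells need both products for new membrane.

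Promoter sequences show the letters that these factors and their partners are known to use. RefSeq promoters (GRCm38.p6, 250 bases before to 50 after each gene's start) were matched by symbol for 20 of the 27 genes. They covered 24 promoters, as a gene can have several. Both strands were searched for the sterol element TCACNCCAC, the E-box CACGTG, the CCAAT box and the GC box GGGCGG. The sterol element in these exact letters stood in 1 of the 24 promoters, that of Hmgcs1, and in 1.24% of all 32851 promoters. The E-box stood in 4 of the 24 promoters (Hsd17b7, Sc5d, Dhcr7 and Insig1) and in 7.15% of all promoters. The CCAAT box stood in 18 of the 24 promoters and 37.4% of all, and the GC box in 19 of the 24 and 35.7% of all. Where no match was found, only these letters were missing from this window. The 3 sequences below are shown because Hmgcs1 carries the sterol element at the head of the sterol pathway, Insig1 carries the E-box in the pathway's own brake, and Fads2 is the one gene of the 5 that were higher in RGECO with an entry. Capitals mark the 4 motifs on either strand, so that the CCAAT box can read ATTGG and the GC box CCGCCC.
Hmgcs1 promoter, chr13:119690101-119690400, plus strand: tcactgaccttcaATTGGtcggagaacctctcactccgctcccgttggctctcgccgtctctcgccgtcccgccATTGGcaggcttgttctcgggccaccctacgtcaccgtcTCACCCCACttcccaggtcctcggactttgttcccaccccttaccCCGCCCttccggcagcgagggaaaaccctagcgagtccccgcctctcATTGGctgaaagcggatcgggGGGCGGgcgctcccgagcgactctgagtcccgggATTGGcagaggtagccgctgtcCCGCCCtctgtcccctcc
Insig1 promoter, chr5:28071162-28071461, plus strand: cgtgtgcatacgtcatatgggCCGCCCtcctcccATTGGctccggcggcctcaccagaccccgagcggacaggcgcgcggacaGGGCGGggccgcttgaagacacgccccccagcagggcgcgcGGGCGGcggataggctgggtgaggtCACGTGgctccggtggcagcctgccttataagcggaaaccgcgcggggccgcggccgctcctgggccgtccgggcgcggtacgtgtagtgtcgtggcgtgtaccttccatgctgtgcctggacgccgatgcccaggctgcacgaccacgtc
Fads2 promoter, chr19:10101454-10101753, minus strand: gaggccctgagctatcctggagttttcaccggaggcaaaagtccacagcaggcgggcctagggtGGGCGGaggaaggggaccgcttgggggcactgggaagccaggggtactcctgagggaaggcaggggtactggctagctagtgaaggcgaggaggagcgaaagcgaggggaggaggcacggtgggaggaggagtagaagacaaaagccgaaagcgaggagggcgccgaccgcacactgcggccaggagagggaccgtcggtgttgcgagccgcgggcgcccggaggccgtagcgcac
In Hmgcs1 the sterol element begins 137 bases before the start, among 4 CCAAT boxes and 3 GC boxes. In Insig1 the E-box begins 101 bases before the start. The Fads2 window holds a single GC box, 186 bases before the start, and none of the other 3 motifs in the letters searched.

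The comparison of RGECO with WT was made by edgeR's quasi-likelihood test on estimated counts, with Benjamini-Hochberg adjustment over all 13318 genes and a threshold of adjusted p 0.05. Levels for single genes are counts per 1000000 (CPM), scaled by TMM. The 5 genes that were higher are 18.5% of the 27, against a background of 3.42% of all genes tested. For the 0 that were lower, the background was 4.93%. At an unadjusted p under 0.05, 10 genes were higher (background 9.70%) and 0 lower (background 12.4%). DESeq2 called 6 of the 27 higher (background 5.65%) and 0 lower (background 6.92%). Every RGECO library lay above every WT library for 5 of the 27 genes (Fdft1, Stard4, Scd1, Fads1 and Fads2), where the background was 3.47%. For 0 genes did every RGECO library lie below every WT library, with a background of 4.50%. The log2 fold change was above 0 for 19 of the 27, or 70.4%, against 48.5% of all genes. Its median over the 27 was 0.18, and over all genes tested -0.01. For 26 of the 27 genes the 95% interval stayed within a 2-fold change up or down, against 74.0% of all genes, and the exception was Stard4.

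**Figure D1:**
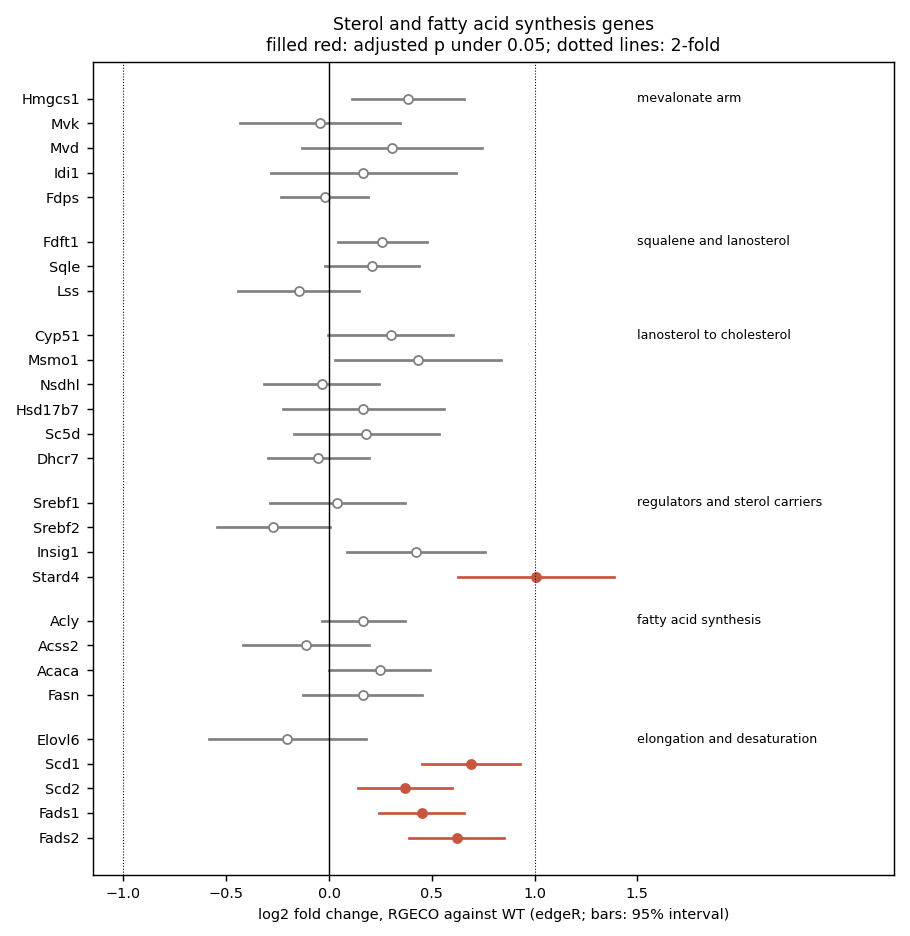
Log2 fold change of RGECO over WT for each of the 27 genes, grouped by role on the vertical axis, with bars for the 95% interval. The 5 genes past adjusted p 0.05 (Stard4, Scd1, Scd2, Fads1 and Fads2) lie at 0.37 to 1.01, and the 14 sterol synthesis enzymes lie between -0.15 and 0.43.

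Scd1 and Scd2 encode stearoyl-CoA desaturases, which put the first double bond into saturated fatty acids to make oleate and palmitoleate. Scd1 (ENSMUSG00000037071) stood at 437.9 CPM in the lowest WT library, 470.5 in the median and 519.1 in the highest. In RGECO it stood at 917.2, 858.0, 604.0, 689.4 and 788.8 CPM in replicates 1, 2, 3, 5 and 6. The lines did not overlap, and replicate 1 was the highest and replicate 3 the lowest. Scd1 rose 1.62-fold, from 478 ± 34.1 CPM over the 6 WT libraries to 771 ± 126 CPM over the 5 RGECO libraries (means ± SD), which is 0.69 on the log2 scale (SE 0.11, adjusted p = 0.00109, edgeR).

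Scd2 (ENSMUSG00000025203) ran from 645.3 CPM in the lowest WT library over a median of 705.6 to 828.6 in the highest. Its RGECO values were 1053, 1062, 810.1, 841.5 and 878.2 CPM. The lines overlapped, since RGECO replicate 3 lay below WT replicate 6. Scd2 rose 1.29-fold, from 719 ± 69.3 CPM over the 6 WT libraries to 929 ± 120 CPM over the 5 RGECO libraries (means ± SD), or 0.37 on the log2 scale (SE 0.11, adjusted p = 0.0439, edgeR). This call rested on single libraries: it was lost without any one of WT replicates 1 to 5 (adjusted p = 0.0848, 0.0589, 0.0753, 0.0502 and 0.0628) and without RGECO replicate 1 or 2 (0.112 and 0.103).

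Scd1 and Scd2 are close copies, so how the reads were divided between them is uncertain. Their estimated counts were whole numbers in 0 of 11 libraries. The same held for Fdps, Fdft1 and Acaca, so this does not show which genes shared reads. Their summed level does not depend on that division. It was 1096 to 1348 CPM in WT and 1414 to 1970 CPM in RGECO, so that the lines did not overlap in the sum. Scd1 took 50.8% ± 8.36 (SD, n = 6) of their summed TPM in WT and 54.2% ± 4.99 (SD, n = 5) in RGECO, and these ranges overlapped.

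Fads1 and Fads2 encode the delta-5 and delta-6 desaturases, which make arachidonate and other long polyunsaturated fatty acids from dietary precursors. Fads1 (ENSMUSG00000010663) stood at 97.8 CPM in the lowest WT library, 109.4 in the median and 125.0 in the highest, and at 170.1, 148.7, 138.3, 154.9 and 150.7 CPM in the RGECO libraries. The lines did not overlap. It rose 1.37-fold, from 112 ± 10.2 CPM over the 6 WT libraries to 153 ± 11.6 CPM over the 5 RGECO libraries (means ± SD), which is 0.45 on the log2 scale (SE 0.10, adjusted p = 0.00828, edgeR).

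Fads2 (ENSMUSG00000024665), whose promoter is printed above, stood at 78.1, 86.7 and 100.6 CPM in the lowest, median and highest WT library. In RGECO it stood at 162.7, 131.2, 128.3, 130.4 and 115.8 CPM, with replicate 1 again the highest and every library above WT. It rose 1.54-fold, from 86.9 ± 8.17 CPM over the 6 WT libraries to 134 ± 17.4 CPM over the 5 RGECO libraries (means ± SD), which is 0.62 on the log2 scale (SE 0.11, adjusted p = 0.00201, edgeR). Elovl6, the elongase that turns palmitate into stearate, did not pass the test and is the one gene of this group with a log2 fold change below 0 (-0.20, adjusted p = 0.566, edgeR).

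The summed TPM of these 5 elongation and desaturation genes was 493.7 ± 15.3 (SD, n = 6, 477.8 to 509.4) in WT and 686.6 ± 115 (SD, n = 5, 598.9 to 856.5) in RGECO. The ratio of the 4 desaturases to Acly, Acaca and Fasn in TPM was 5.14 ± 0.528 in the 6 WT and 5.65 ± 0.414 in the 5 RGECO libraries (± SD), with overlapping ranges. All 4 desaturases lie on chromosome 19 of GRCm38 (GENCODE M21), in neighbouring pairs: Scd2 at 44293674 to 44306864 and Scd1 at 44394455 to 44407879, and Fads2 at 10062765 to 10101746 and Fads1 at 10182888 to 10196877. Of the 450 tested genes on that chromosome, 23 were higher, a background of 5.11%, and 18 were lower. The median log2 fold change on that chromosome was -0.0033, against -0.01 over all genes.

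**Figure D2:**
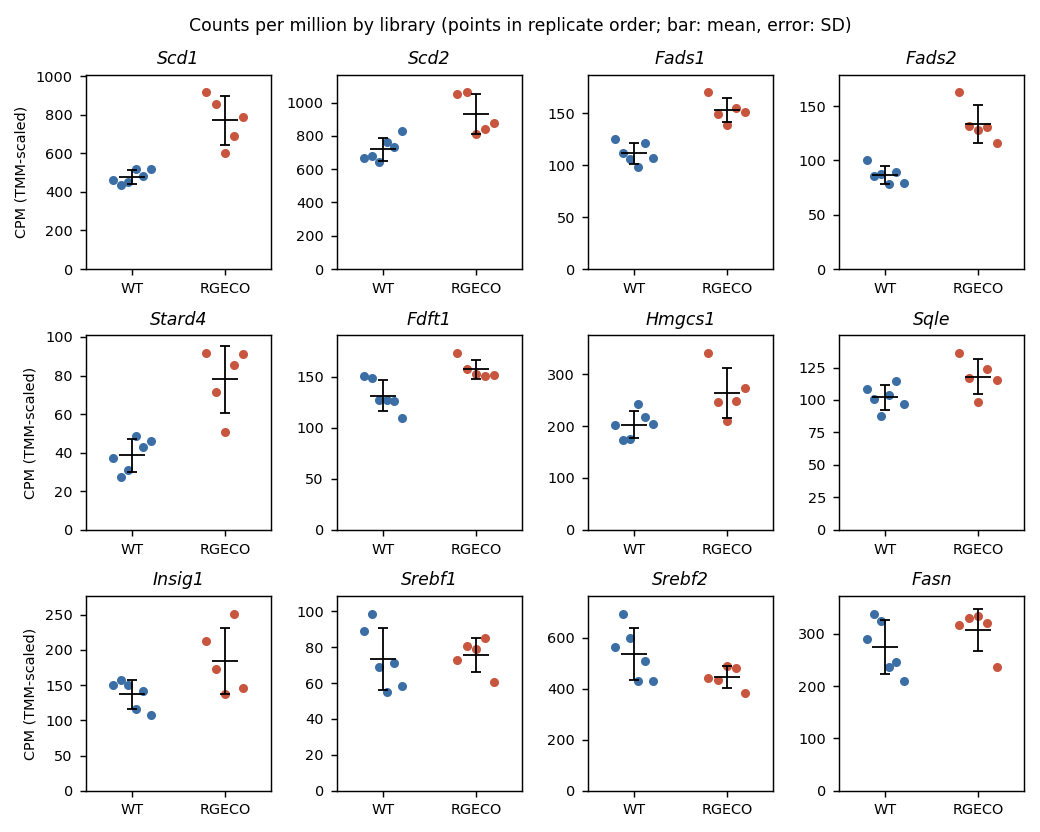
Level of single genes in each library, in CPM on linear axes from 0, with a point for each of the 6 WT and 5 RGECO libraries, a bar at the mean and an error bar for the SD. Scd1, Fads1, Fads2, Stard4 and Fdft1 show no overlap between the lines, while Scd2, Hmgcs1, Sqle, Insig1, Srebf1, Srebf2 and Fasn overlap.

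Stard4 (ENSMUSG00000024378) encodes a soluble protein that carries cholesterol between membranes inside the cell. It stood at 27.3, 39.9 and 48.8 CPM in the lowest, median and highest WT library, and at 91.6, 71.3, 50.6, 85.6 and 91.2 CPM in the RGECO libraries. The lines did not overlap, though RGECO replicate 3 lay close to the highest WT library. Stard4 rose 2.01-fold, from 38.8 ± 8.53 CPM over the 6 WT libraries to 78.1 ± 17.4 CPM over the 5 RGECO libraries (means ± SD), which is 1.01 on the log2 scale (SE 0.18, 95% interval 0.63 to 1.39, adjusted p = 0.00224, edgeR).

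The regulators themselves did not pass the test. Srebf2 stood at 428.3, 536.9 and 692.5 CPM in the lowest, median and highest WT library and at 440.5, 432.4, 489.5, 479.6 and 384.0 CPM in RGECO. Its lines overlapped, with a mean of 537 ± 102 CPM over the 6 WT against 445 ± 42.1 CPM over the 5 RGECO libraries (± SD) and a log2 fold change of -0.27 (95% interval -0.55 to 0.00, adjusted p = 0.232, edgeR). Srebf1 stood at 55.3, 69.8 and 98.5 CPM in WT and at 72.6, 80.6, 78.9, 85.1 and 60.6 CPM in RGECO. All RGECO values of Srebf1 lay within the WT range, with a log2 fold change of 0.04 (95% interval -0.29 to 0.37, adjusted p = 0.919, edgeR). In TPM, Srebf2 made up 85.8% ± 3.10 (SD, n = 6) of the summed Srebf1 and Srebf2 level in WT and 81.8% ± 1.80 (SD, n = 5) in RGECO, and the ranges overlapped. Srebf1 overlaps Rai1 on the other strand and the strand setting of the counts is not given, so reads of the overlap cannot be told apart.

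Insig1, the brake on SREBP release and itself an SREBP target, stood at 107.0, 145.5 and 157.7 CPM in the lowest, median and highest WT library. Its RGECO values were 213.0, 173.0, 137.7, 250.8 and 145.8 CPM. Replicates 5 and 1 were the highest and replicates 3 and 6 lay within the WT range. The log2 fold change was 0.42 (95% interval 0.09 to 0.76), with an adjusted p of 0.120 (edgeR), which did not pass.

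None of the 14 enzymes of sterol synthesis passed the test. At an unadjusted p under 0.05 there were 3 higher (Hmgcs1, Fdft1 and Msmo1) and 0 lower (edgeR), where the backgrounds were 9.70% and 12.4%. DESeq2 called 1 of the 14 higher, Hmgcs1, and 0 lower (backgrounds 5.65% and 6.92%). On log2(TPM + 1) 1 was higher, Fdft1 (background 2.58%). With the mitochondrial share as a covariate 3 were higher (background 12.1%) and with the Malat1 share 4 (10.5%). In both covariate fits 0 were lower (backgrounds 11.4% and 10.3%). With 3.42% of all genes higher and 4.93% lower, a count of 0 in 14 genes is near the background. Their log2 fold changes ran from -0.15 to 0.43 with a median of 0.17, and 9 were above 0. Each of the 14 intervals lay inside 2-fold. The upper bound that reached farthest was that of Msmo1, at 1.79-fold.

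Hmgcs1 (ENSMUSG00000093930) makes HMG-CoA from acetyl-CoA at the entry of the mevalonate pathway, and its promoter holds the sterol element printed above. It stood at 173.4, 203.0 and 242.4 CPM in the lowest, median and highest WT library and at 340.6, 246.7, 209.8, 249.2 and 273.7 CPM in RGECO. Of the RGECO libraries, 4 lay above all WT libraries and replicate 3 did not. Its mean was 202 ± 26.3 CPM in the 6 WT and 264 ± 48.5 CPM in the 5 RGECO libraries (± SD), with a log2 fold change of 0.38 (95% interval 0.11 to 0.66, adjusted p = 0.0797, edgeR). It did not pass, but it crossed the threshold without WT replicate 4 (adjusted p = 0.0490) and without RGECO replicate 3 (adjusted p = 0.0482), and with DESeq2 (adjusted p = 0.0331).

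The other 4 genes of the mevalonate arm did not pass. They were Mvk (mevalonate kinase), Mvd (mevalonate diphosphate decarboxylase), Idi1 (isopentenyl diphosphate isomerase) and Fdps (farnesyl diphosphate synthase). Their log2 fold changes were -0.04, 0.31, 0.17 and -0.02. The interval of Fdps, the branch point to other isoprenoids, was -0.23 to 0.19. The summed TPM of the 5 genes of this arm was 291 ± 42.1 in the 6 WT and 343 ± 43.9 in the 5 RGECO libraries (± SD).

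Fdft1 (ENSMUSG00000021273), squalene synthase, commits farnesyl diphosphate to sterols. It stood at 109.6, 127.1 and 150.4 CPM in the lowest, median and highest WT library and at 173.3, 158.0, 153.2, 151.0 and 151.9 CPM in RGECO. The lines did not overlap, but the lowest RGECO library lay just above the highest WT library, at 151.0 against 150.4 CPM. The log2 fold change of 0.26 (95% interval 0.04 to 0.48) had an adjusted p of 0.1375 (edgeR) and did not pass. The gene overlaps Ctsb on the other strand in the annotation, and its estimated counts were whole numbers in 0 of 11 libraries.

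Sqle, squalene epoxidase, a rate-limiting step of the pathway, stood at 87.5, 102.3 and 114.9 CPM in WT and at 136.1, 116.9, 98.2, 123.7 and 115.5 CPM in RGECO. Only RGECO replicate 3 lay within the WT range. The log2 fold change was 0.21 (95% interval -0.02 to 0.44, adjusted p = 0.274, edgeR). Lss, which closes squalene epoxide into lanosterol, had a log2 fold change of -0.15 (adjusted p = 0.589, edgeR).

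From lanosterol to cholesterol, 6 enzymes were measured and 0 passed. Cyp51 and Msmo1, which remove methyl groups from lanosterol, had log2 fold changes of 0.30 and 0.43. The later enzymes Nsdhl, Hsd17b7, Sc5d and Dhcr7, the last of which makes cholesterol itself, had log2 fold changes of -0.04, 0.17, 0.18 and -0.05. The summed TPM of the 6 was 234 ± 34.9 in the 6 WT and 276.7 ± 62.3 in the 5 RGECO libraries (± SD). The Cyp51 gene overlaps Akap9 on the other strand.

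Of the 4 enzymes of fatty acid synthesis, 0 passed. Fasn, the fatty acid synthase that builds palmitate, stood at 210.3, 268.7 and 338.3 CPM in the lowest, median and highest WT library. Its RGECO values were 317.8, 330.4, 334.7, 320.3 and 236.4 CPM, all within the WT range, with replicate 6 well below the other 4. The log2 fold change was 0.16 (adjusted p = 0.535, edgeR). Acly, which supplies acetyl-CoA from citrate, had a log2 fold change of 0.17, Acaca, which makes malonyl-CoA, 0.25, and Acss2, which activates acetate, -0.11. The 4 desaturases rose while these 4 enzymes of fatty acid synthesis did not pass the test, but a difference between these groups of genes was not tested.

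**Figure D3:**
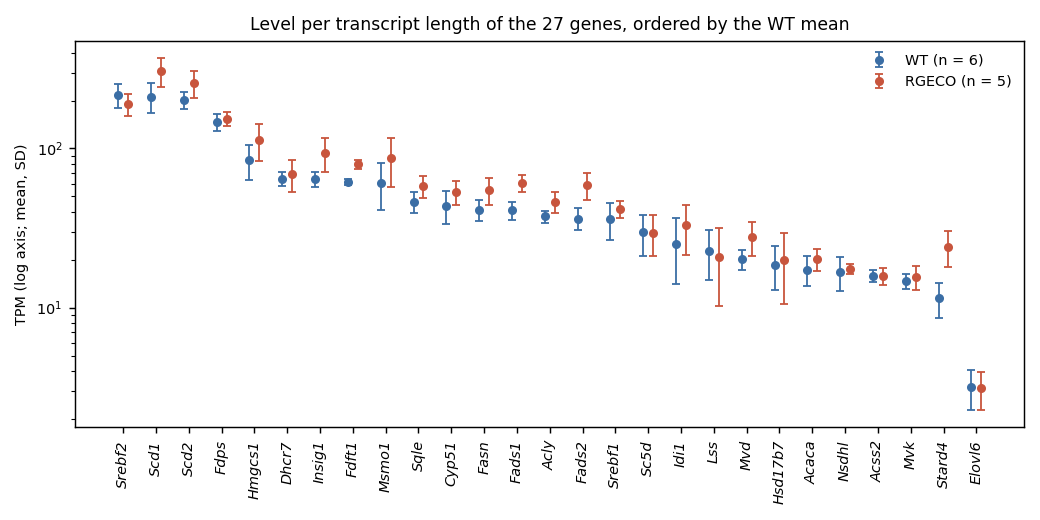
Level of each of the 27 genes in TPM on a log axis, as the mean of each line with bars for the SD, ordered by the WT mean. Srebf2, Scd1 and Scd2 stand at the top in WT, near 200 TPM. In RGECO they stand at 190.1, 305.6 and 257.9 TPM. Elovl6 stands near 3 TPM in both lines.

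Levels can be set side by side between genes in TPM, which is corrected for length. In WT the highest mean was that of Srebf2 at 217 TPM, followed by Scd1 at 211.4 ± 45.5 (SD, n = 6) and Scd2 at 201.9 ± 23.8 (SD, n = 6), and these 3 did not differ beyond their spread. Fdps followed at 146 TPM and Hmgcs1 at 84.7 TPM. Fads1 and Fads2 stood at 40.9 ± 5.34 and 36.3 ± 5.72 TPM (SD, n = 6 each), also within each other's spread. Stard4 stood at 11.4 ± 2.86 TPM (SD, n = 6). Elovl6 was the lowest at 3.16 TPM. The pair of Scd1 and Scd2 took 26.0% ± 2.03 (SD, n = 6) of the summed TPM of the 27 genes in WT and 28.8% ± 1.97 (SD) in the 5 RGECO libraries. That sum was 1590 ± 50.2 TPM (SD, n = 6, 1532 to 1677) in WT and 1952 ± 258 TPM (SD, n = 5, 1761 to 2386) in RGECO. The lines did not overlap in this sum, nor, by a narrow gap, in the summed TPM of the muscle markers given above. The part of muscle content in these values was not tested.

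RGECO replicate 1 was the highest library of its line for 13 of the 27 genes. RGECO replicates 3 and 6 were each the lowest for 9. Among WT libraries, replicate 2 was the highest for 8 genes and the lowest for 9. That library also had the lowest mitochondrial share, 0.204%.

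The calls moved with the share of mitochondrial and Malat1 counts. With the mitochondrial share as a covariate, 8 of the 27 genes were higher, or 29.6%, with a background of 12.1%. With the Malat1 share, 9 were higher, or 33.3%, with a background of 10.5%. Hmgcs1 (adjusted p = 0.00510 and 0.00192), Cyp51 (0.0259 and 0.00414) and Msmo1 (0.00111 and 9.3e-04) passed in both fits and Idi1 passed with the Malat1 share (0.0466). In both fits Srebf2 was lower, with log2 fold changes of -0.37 and -0.40 (adjusted p = 8.2e-04 and 0.00340). This is 1 gene of the 27, against backgrounds of 11.4% and 10.3% for lower genes. Whether these shares act on the levels was not tested.

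On the scale of log2(TPM + 1), tested with limma, 4 of the 27 genes were higher, with a background of 2.58%. They were Stard4, Fads1, Fads2 and Fdft1 (adjusted p = 0.0448). Scd1 (log2 fold change 0.54, adjusted p = 0.0859) and Scd2 (adjusted p = 0.178) did not pass there, and Scd1 overlapped between the lines in TPM, at 154.1 to 268.6 in WT and 245.7 to 401.2 in RGECO. That scale moved the median of all genes by 0.10, and turned the split of all calls to 344 higher and 261 lower, against 456 and 656 in counts. With all 12 libraries, of which RGECO replicate 4 has 0 counts in these genes, only Stard4 was higher (background 1.82%). Stard4 passed the threshold under every setting tried, with log2 fold changes of 0.93 to 1.22.

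**Figure D4:**
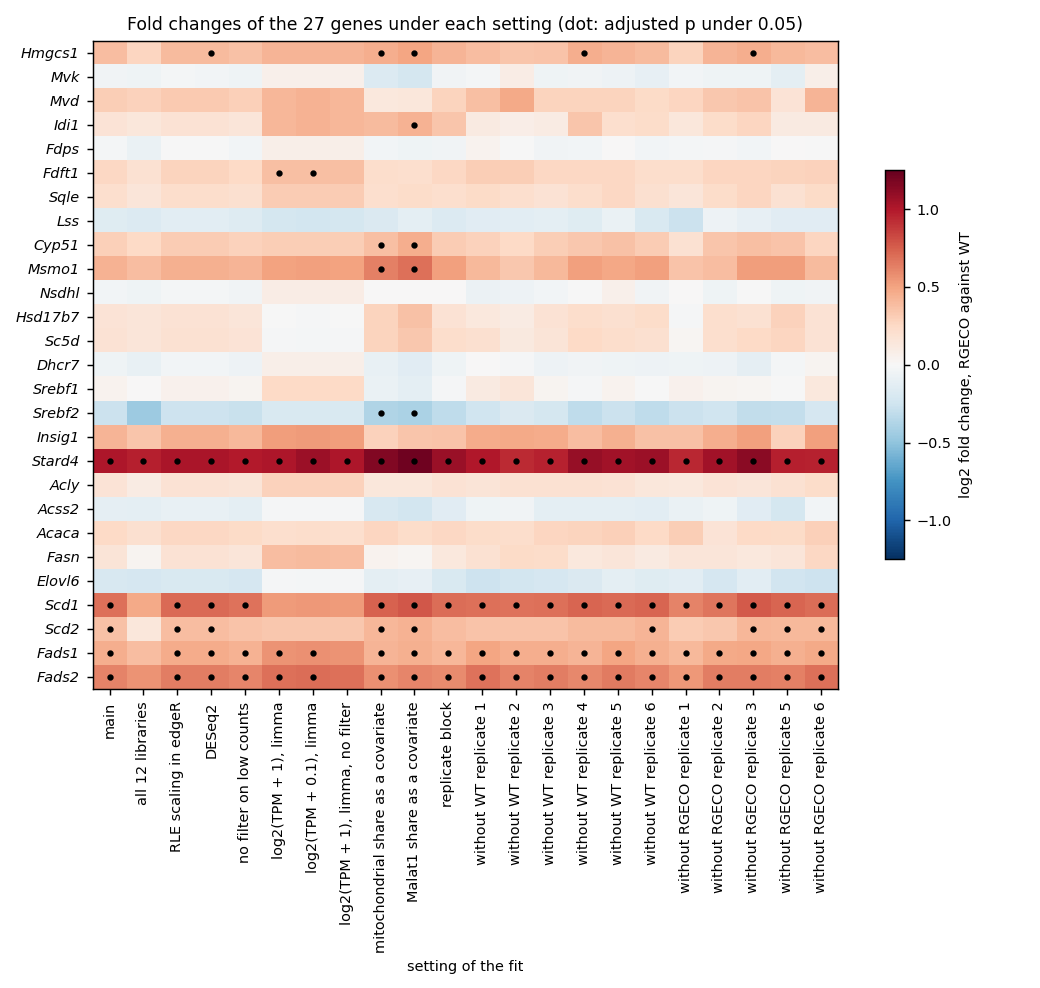
Log2 fold change of RGECO over WT for each of the 27 genes (rows) under each setting tried (columns), with a mark where adjusted p was under 0.05. Stard4 is marked in every column, and Hmgcs1, Cyp51 and Msmo1 are marked with the mitochondrial or Malat1 share as a covariate.

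Genes around the pathway were read from 8 lists with 95 genes outside the 27. Of these, 88 passed the filter on low counts, 0 were higher and 3 were lower by edgeR, and their median log2 fold change was -0.0072. At an unadjusted p under 0.05, 10 were higher and 7 lower (backgrounds 9.70% and 12.4%). DESeq2 called 1 higher and 4 lower (backgrounds 5.65% and 6.92%). The 3 of 88 that were lower are a share near or below the 4.93% of all genes that were lower. For the 0 that were higher, the background was 3.42%. The balance turned with the covariates: the mitochondrial share gave 17 higher and 8 lower genes (backgrounds 12.1% and 11.4%), and the Malat1 share gave 13 higher and 6 lower (10.5% and 10.3%).

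Of 12 genes of sterol uptake and transport, 2 fell and 0 rose, where 4.93% of all genes fell. Gramd1b, which moves cholesterol from the plasma membrane to the endoplasmic reticulum, stood at 38.5, 42.2 and 51.6 CPM in the lowest, median and highest WT library and at 17.0, 24.1, 29.0, 21.5 and 24.1 CPM in RGECO. The lines did not overlap. It fell from 44.1 ± 5.40 CPM over the 6 WT libraries to 23.1 ± 4.36 CPM over the 5 RGECO libraries (means ± SD), which is -0.92 on the log2 scale (SE 0.14, adjusted p = 8.2e-04, edgeR). Vldlr, a receptor for triglyceride-rich lipoproteins, ran from 90.5 to 163.8 CPM in WT and from 66.2 to 97.5 CPM in RGECO, with overlap between the lines. Vldlr fell from 131.5 ± 24.2 CPM over the 6 WT libraries to 81.8 ± 12.1 CPM over the 5 RGECO libraries (means ± SD), which is -0.68 on the log2 scale (SE 0.14, adjusted p = 0.00739, edgeR). It did not pass on the TPM scale (adjusted p = 0.127). DESeq2 called 3 of the 12 lower, the third being Tmem97, a sterol-binding membrane protein, at -0.38 on the log2 scale and without overlap (adjusted p = 0.0556 by edgeR). The covariate fits called 5 and 4 of the 12 lower (backgrounds 11.4% and 10.3%). For DESeq2 the background of lower genes was 6.92%. The median log2 fold change of the 12 was -0.15.

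Of 14 genes of glycerolipid synthesis, 1 fell and 0 rose, which is near the 4.93% of all genes that fell. Gpat3, an acyltransferase that starts triglyceride assembly, ran from 7.09 to 12.8 CPM in WT and from 3.36 to 5.78 CPM in RGECO, without overlap. Gpat3 fell from 9.30 ± 2.05 CPM over the 6 WT libraries to 4.57 ± 0.866 CPM over the 5 RGECO libraries (means ± SD), which is -1.03 on the log2 scale (SE 0.21, adjusted p = 0.00643, edgeR). It did not pass on the TPM scale (adjusted p = 0.0783).

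In the other 6 lists 0 genes passed in either direction by edgeR. By unadjusted p under 0.05, 0 of 8 further sterol synthesis enzymes, 1 of 12 genes of SREBP processing, 2 of 7 genes of NADPH and citrate supply, 3 of 16 other fatty acid genes and 3 of 12 genes that use farnesyl diphosphate were higher, and 1 of the other fatty acid genes was lower. Of the 7 tested genes of sterol efflux and the sterol sensor LXR, 1 was higher and 2 lower by that measure. Over all genes tested, that measure called 9.70% higher and 12.4% lower. DESeq2 called 1 gene of these 6 lists, Icmt, which methylates prenylated proteins, and called it higher (background 5.65%). Their medians ran from -0.18 (sterol efflux) to 0.24 (NADPH supply).

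Markers of other cell types were read beside these values. Over all genes tested, 3.42% rose and 4.93% fell by edgeR. Of 8 adipocyte markers, 2 passed the filter, and Plin1, Lep and Retn had 0 counts over the 11 libraries, with Cidec at 1 and Adipoq at 3. The summed adipocyte markers were 10.5 to 19.2 TPM in WT and 15.1 to 29.2 TPM in RGECO. Pparg, a lipid-sensing receptor on that list, rose from 15.2 ± 2.80 CPM over the 6 WT libraries to 25.3 ± 3.84 CPM over the 5 RGECO libraries (means ± SD), which is 0.73 on the log2 scale (SE 0.16, adjusted p = 0.00917, edgeR). The other adipocyte marker tested, Cebpa, went the other way, at 6.79 to 11.9 CPM in WT and 2.42 to 7.70 CPM in RGECO, which is -0.96 on the log2 scale (adjusted p = 0.0502, edgeR). Cebpa did not pass in that fit, but DESeq2 and both covariate fits called it lower. Pparg passed narrowly on log2(TPM + 1) (adjusted p = 0.04865, limma). It was lost on log2(TPM + 0.1) (0.0507, limma) and on log2(TPM + 1) without a filter (0.1351, limma). In TPM the lines overlapped for Pparg, with a highest WT value of 14.37 and a lowest RGECO value of 13.59. Of the 6 tested fibroblast markers, 1 rose (Dcn) and 2 fell (Col1a1 and Col3a1), and the 7 summed to 984.8 to 1747 TPM in WT and 846.2 to 954.0 TPM in RGECO. With all 12 libraries, which adds the near-empty RGECO replicate 4, the calls of Dcn, Col1a1 and Col3a1 were lost (adjusted p = 0.165, 0.0511 and 0.657, edgeR). Col3a1 was also lost on log2(TPM + 1) without a filter (0.119, limma). Of 6 proliferation markers, 0 rose and 2 fell (Ccnb1, log2 fold change -0.84, and Aurkb, -0.64), with sums of 74.5 to 147.1 TPM and 65.2 to 109.1 TPM. The call of Aurkb was lost on log2(TPM + 1) (-0.25, adjusted p = 0.539), under the replicate block (0.0722), and when any one of 7 libraries was left out (WT replicates 3 to 6 and RGECO replicates 1, 5 and 6). Aurkb was also lost with all 12 libraries (0.0671, edgeR) and without a filter on low counts (0.0557, edgeR). The same held on log2(TPM + 0.1) (0.542, limma) and on log2(TPM + 1) without a filter (0.664, limma). Ccnb1 was lost under the replicate block (adjusted p = 0.0519, edgeR) and on log2(TPM + 1) without a filter (0.0686, limma). Of 5 macrophage markers only Cd68 passed the filter and did not pass the test, with sums of 20.8 to 31.3 and 18.1 to 40.2 TPM, and Adgre1 had 0 counts. The 4 endothelial and 4 Schwann cell markers all failed the filter, with sums of at most 0.589 and 2.96 TPM. Of 8 muscle markers, 1 (Myh3) rose and 0 fell, 2 had log2 fold changes below 0 (Ckm, -0.35, and Myog, -0.18), and the median was 0.08. Des did not pass (0.44 on the log2 scale, adjusted p = 0.0965, edgeR). DESeq2, log2(TPM + 1) and the fit with the mitochondrial share called Des higher. Both covariate fits called Ckm lower. The call of Myh3 was lost without RGECO replicate 3 (adjusted p = 0.0575, edgeR) and with all 12 libraries (0.962, edgeR). It was also lost on log2(TPM + 1) without a filter (0.0658, limma). In TPM the summed levels of muscle and fibroblast markers did not overlap between the lines. For muscle the gap was narrow, with 15400 TPM in the highest WT and 15480 TPM in the lowest RGECO library. In CPM, the scale of the test, every RGECO library lay above every WT library for 1 of the 8 muscle markers, Myh3 (background 3.47%). Acta1 overlapped there, at 6626 to 10610 CPM in WT and 8177 to 12370 CPM in RGECO. The part of these summed levels in the result was not tested. A few genes make up most of these sums. In the WT means Acta1, which did not pass the test (adjusted p = 0.448, edgeR), held 7392 of 13940 TPM. Col3a1 and Col1a1 held 807.8 and 417 of 1372 TPM.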

How the data were processed

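Poly(A) RNA of 12 libraries was sequenced with paired reads of 50 bases on a Singular G4, per the labels' protocols. The authors deposited estimated counts per gene, not normalised, and TPM per gene, corrected for length and summing to 1000000 per library, per the file headers. The submitters' processing notes name Salmon, STAR, BWA 0.7.12-r1039 and bedtools 2.25.0 as tools, and GRCm39, mm10 and hg19 as builds. For their roles, the annotation and the strand setting, nothing is given in the sources used here. Coordinates come from GENCODE M21 (GRCm38) and promoters from RefSeq, matched by symbol.

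After rounding of the estimated counts, R 4.3.3 with edgeR 4.0.16 served for the test (filterByExpr, TMM, robust quasi-likelihood F test) of the 11 libraries with at least 1000000 counts. Adjusted p is Benjamini-Hochberg over 13318 genes. DESeq2 1.42.0 and limma 3.58.1 on log2(TPM + 1) and log2(TPM + 0.1) served as alternatives, beside RLE scaling, no filter, the 2 covariates, all 12 libraries, a replicate block and leaving out each library. The test was first run on simulated data. Fold changes on the log2(TPM + 1) scale understate those of low genes. Counts were called whole within 1e-06. The common coefficient of variation between libraries was 25.2%, and the chi-square per gene was at least 7.23 in each of 25 within-line pairs, so none was counted as a copy of another.

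The 27 genes and all lists were chosen with earlier results of these data known. A gene of the 27 has its value in every library if it passed the test, if its lines did not overlap, or if it was Srebf1, Srebf2, Insig1, Hmgcs1, Sqle, Fasn, Scd1 or Scd2. From the other lists, genes past adjusted p 0.05 were named, at most the 5 with the smallest p. Names outside this rule (Icmt and Tmem97, not called by edgeR, and markers that did not pass) were chosen after their values were seen. One list of related genes is not reported here.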

Additional observations from a re-analysis of the deposited data

Results flagged for a closer look

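Fasn stood at 236.4 CPM in RGECO replicate 6, apart from the other 4 RGECO libraries, whose nearest value was 317.8 CPM. The gap was 0.828 of the whole range of the line. It was the 1 value to stand apart among 62 sets of libraries examined (a gene in a line), and chance alone sets apart about 1 in 20 such sets.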

How the results depend on the processing

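The 5 genes higher in RGECO became 8 with a covariate for mitochondrial share and 9 with one for Malat1 share, 1 with all 12 libraries and 1 on log2(TPM + 1) without a filter. The 0 lower genes became 1 with either covariate (Srebf2). Leaving out single libraries gave 4 to 6 higher. Over all genes the 1112 calls became 1674 with DESeq2, 605 on log2(TPM + 1), 587 on log2(TPM + 0.1), 258 on log2(TPM + 1) without a filter, 3133 with the mitochondrial share and 2771 with the Malat1 share. The cause was not tested.

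Replicate numbers were shared by 5 libraries of each line, and the labels do not state a pairing. The correlation of their deviations ran from -0.153 to 0.364, and 1 of 5 RGECO libraries was closest to its own number. These values showed no pairing by number. With so few pairs they cannot settle whether libraries of the same number shared a preparation. With a replicate block 4 genes were higher and 0 lower, and 777 genes were called. Scd2 had a log2 fold change of 0.38 (adjusted p = 0.0954, edgeR) under the block.

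Scd2 was also lost without a filter (adjusted p = 0.1185) and Fads1 and Fads2 on log2(TPM + 1) without a filter (0.0658 and 0.0651). With all 12 libraries, the near-empty RGECO replicate 4 included, Scd1, Scd2, Fads1 and Fads2 were lost (0.824, 0.981, 0.550 and 0.183). Gramd1b was lost on log2(TPM + 1) without a filter (0.0646).

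Directions turned only in genes that did not pass the test. On log2(TPM + 1), with and without a filter, log2 fold changes became 0.064 for Mvk, 0.07 for Fdps, 0.091 for Nsdhl, -0.0086 for Hsd17b7, -0.019 for Sc5d and 0.075 for Dhcr7. On log2(TPM + 0.1) they were 0.067, 0.071, 0.097, -0.019, -0.020 and 0.076 in the same order. Nsdhl became 0.0094 with the mitochondrial share, 0.0042 with the Malat1 share and 0.00038 with the replicate block. Srebf1 became -0.079, -0.121 and -0.013. Leaving out single libraries gave Mvk -0.12 to 0.094, Fdps -0.045 to 0.039, Nsdhl -0.072 to 0.059, Hsd17b7 -0.013 to 0.28, Dhcr7 -0.12 to 0.032 and Srebf1 -0.019 to 0.15. The depth, 5881622 counts in the smallest library used, and 5 to 6 libraries per line limit what can be seen for genes such as Elovl6.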
